A study of Homo sapiens with 4 samples.

Results

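The proteasome is the protease complex that degrades ubiquitin-tagged proteins, and the genes examined here encode its subunits, activators and dedicated assembly factors. They were chosen by name: every protein-coding gene in the count tables whose symbol is PSMA, PSMB, PSMC, PSMD, PSME or PSMG followed by a number, which gave 47 of 60614 gene IDs. Their mRNA levels come from RNA-seq of DU145, an established human prostate cancer cell line, in SPOP-F133V cells (2 libraries) and in wild-type cells (2 libraries). SPOP is the adaptor that brings substrates to a CUL3 ubiquitin ligase, and F133V lies in its substrate-binding domain. Both genotypes were grown in the same serum-containing medium, with no treatment given in the labels. The labels do not say how the F133V cells were made, whether they are 1 clone, what the wild-type cells received, or whether replicates came from separate cultures. P-values therefore measure only the spread between these libraries, which may be technical.

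The core of the proteasome is a barrel of stacked rings. The outer rings (PSMA subunits) form the gate, and the inner rings (PSMB subunits) hold the proteolytic sites. A regulatory particle caps the barrel: its base carries a ring of ATPases (PSMC subunits) that unfold substrates, and its lid (most PSMD subunits) holds the enzyme that removes ubiquitin. The constitutive catalytic subunits PSMB5, PSMB6 and PSMB7 can be replaced by PSMB8, PSMB9 and PSMB10, which interferon induces. The barrel built with them, the immunoproteasome, produces peptides suited to presentation by MHC class I.

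The F133V libraries held 36149516 and 35173245 reads in genes, the wild-type ones 39642063 and 36102260. SPOP itself stood at 1171 and 1151 CPM (TMM-scaled counts relative to library size) in F133V, against 844 and 906 CPM in wild-type, a log2 fold change of 0.41 ± 0.055 (SE; edgeR adjusted p = 2.7e-06), and 0.53 after the GC adjustment described with the members. A gene count does not tell the mutant transcript from the normal one. The epithelial markers KRT8, KRT18, EPCAM and CDH1 were present in every library, at 81.1 CPM or more. The prostate luminal marker KLK3 had 0 reads in all libraries. The blood markers PTPRC and CD3E, the fibroblast marker COL3A1 and the endothelial markers PECAM1 and CDH5 were at 0.198 CPM or less. The fibroblast marker COL1A1 had 7.17 and 7.54 CPM in F133V, against 5.78 and 6.19 CPM in wild-type.

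Of the 47 genes, 45 had enough reads to be tested. PSMA8, a testis form of an outer-ring subunit, had 0 reads in all libraries, and PSMB11, the catalytic subunit of the thymus, had at most 1 read in a library. Among the 45, edgeR's quasi-likelihood test with Benjamini-Hochberg adjustment over all 17539 tested genes called 8 higher and 21 lower in F133V than in wild-type, and 16 were not called. Over all tested genes the same test called 54.8%, with 27.2% higher and 27.6% lower in F133V. The members' shares were 17.8% higher and 46.7% lower. Their median log2 fold change was -0.055, beside 0.022 over all tested genes. The 2 libraries of each genotype did not overlap for 36 members, with F133V higher in 13 and lower in 23, against 40.1% and 37.8% of all tested genes. Leaving out a wild-type library leaves 1 in that group, so the spread then comes from the F133V pair alone and the lone library is assumed to vary like it. The F133V replicates differed by a median of 0.071 on the log2 scale over the members, the wild-type ones by 0.036. Fewer members were called with a wild-type library left out, and the share of all genes called then is not given here. The members' median log2 fold change was -0.060 without wild-type replicate 1 and -0.079 without wild-type replicate 2. Lost calls in these fits, also where named later, thus do not show that a fold change rested on that library.

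Fold changes moved with the GC content of the transcript, both in the whole table and among the members. Across the 45 members, which share the same 4 libraries, Spearman's rho between the GC content of the longest coding transcript and the log2 fold change was 0.67. The same rho was 0.71 for the difference between the F133V replicates, and -0.034 for the difference between the wild-type replicates. Member values are therefore given with a GC-adjusted value beside them, from the same test after a smooth trend on GC content and length was removed from each library. A true genotype difference that ran along GC content would be removed with the trend. The trend was fitted to the same counts and entered as fixed, so p-values of this fit leave out its uncertainty. They also rest on a narrower spread between replicates, with a biological coefficient of variation of 2.36% in place of 4.64%. After it, 7 members were called higher, 25 lower and 13 not, with a median of -0.11, beside 0.022 over all genes tested in that fit. The GC-adjusted test called 52.4% of those genes, 28.0% higher and 24.3% lower in F133V. A total of 15 members were lower in both fits and 3 were higher in both, while PSMA4 and PSMC2 changed from lower to higher.

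**Figure D1:**
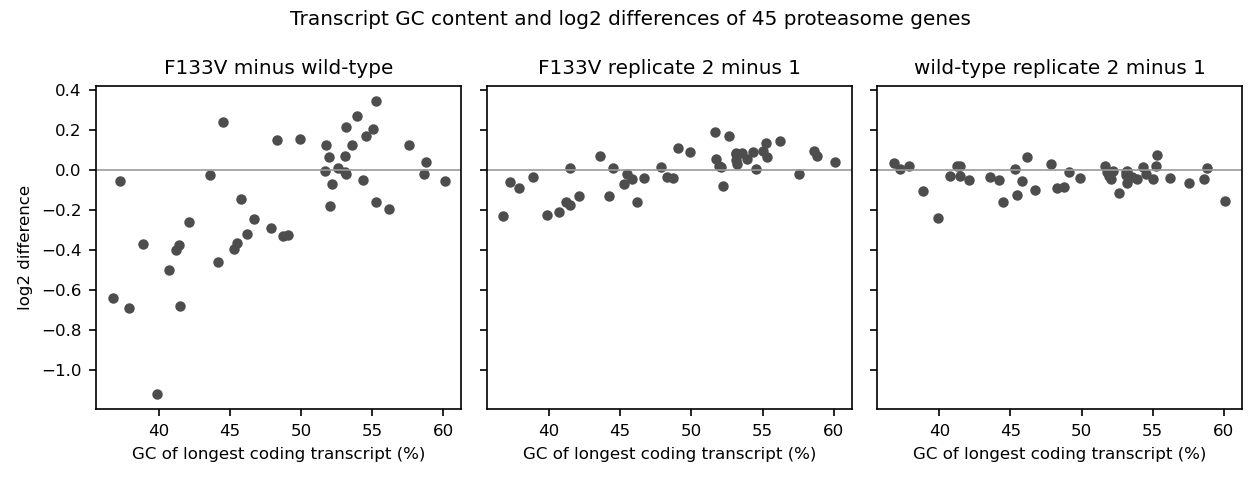
Log2 difference (vertical axis) against GC content of the longest coding transcript in percent (horizontal axis) for the 45 tested members, 1 point per gene. The left panel is F133V minus wild-type, the middle panel F133V replicate 2 minus replicate 1 and the right panel wild-type replicate 2 minus replicate 1; points climb with GC content in the left and middle panels (rho 0.67 and 0.71) and not in the right one (rho -0.034).

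The longest coding transcript was used because the longest transcript of any kind is not protein coding for 18 of the 47 members. With the longest transcript of any kind, the adjusted test called 52.2% of all genes, 27.6% higher and 24.5% lower, and 11 members higher and 22 lower. PSMD6 and PSMD14 differed most between the choices. Their log2 fold changes were -0.28 and -0.29 with the coding transcript, and 0.21 and 0.40 with the longest transcript. PSMA3 also changed direction, with -0.11 from the coding and 0.083 from the longest transcript (edgeR adjusted p = 0.00612 and 0.0467). The adjusted direction of these 3 genes thus rests on the transcript chosen.

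**Figure D2:**
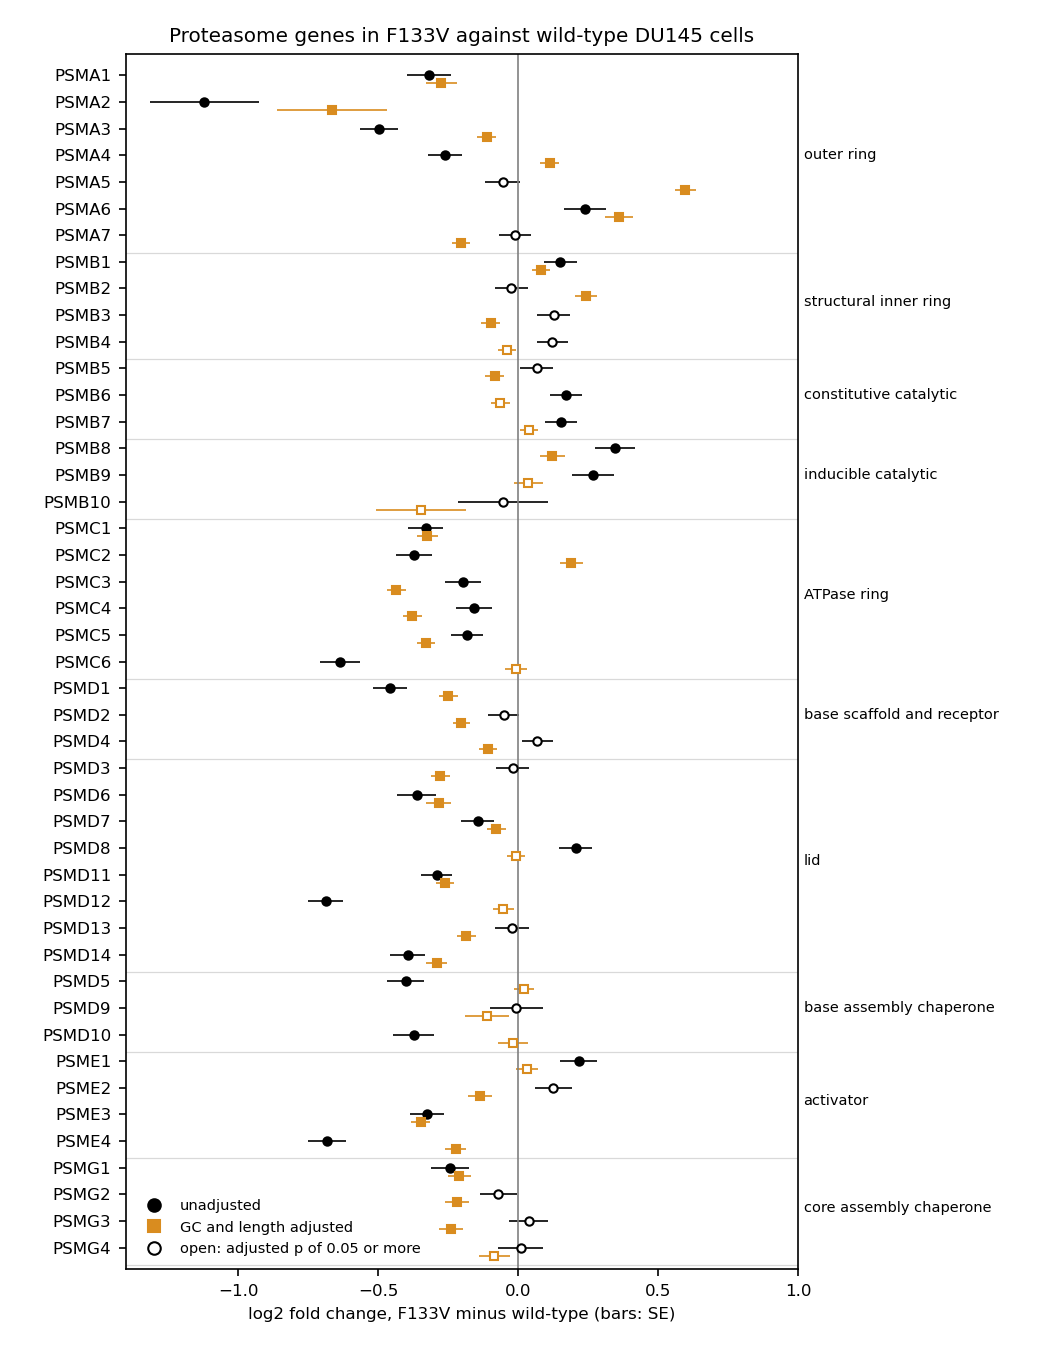
Log2 fold change (F133V minus wild-type, horizontal axis) of the 45 tested members, grouped by role down the page. Black circles are unadjusted and orange squares GC- and length-adjusted values, bars are SE, and open symbols did not reach an adjusted p under 0.05; the ATPase ring lies left of 0 before adjustment, and 15 members are called lower in both fits.

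Summed over genes, the parts of the complex differed in direction, a description with no test. The 17 regulatory-particle genes together had 3056 and 3126 CPM in F133V, against 3466 and 3416 CPM in wild-type. The constitutive core genes had 2432 and 2458 CPM in F133V, against 2437 and 2383 CPM in wild-type. The 3 inducible catalytic genes had 93.1 and 97.2 CPM in F133V, against 76.3 and 77.5 CPM in wild-type. F133V was thus lower for the cap and overlapped wild-type for the core. It was higher for the inducible sum, which is mostly PSMB8 and PSMB9. PSMB10 added at most 2.65 CPM to it, and its groups overlapped. Among all tested genes, 40.1% were higher and 37.8% lower in F133V without overlap. The sums are not GC-adjusted. The median log2 fold changes of the tested genes of these parts were -0.20, 0.028 and 0.27 before GC adjustment and -0.25, -0.052 and 0.037 after it. CPM are shares of each library, so less RNA of a gene per cell and more RNA of other genes cannot be told apart.

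Per length of coding transcript, the mean level over the 4 libraries ran from 1.21 CPM per kb for PSMA2 to 482 CPM per kb for PSMB4 among the tested members. The constitutive catalytic subunits lay at 122 to 243 CPM per kb. Of the inducible ones, PSMB8 and PSMB9 lay at 38.9 and 39.2 CPM per kb and PSMB10 at 2.03 CPM per kb. The cells thus carried inducible-subunit mRNA below the level of its constitutive counterpart in both genotypes.

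**Figure D3:**
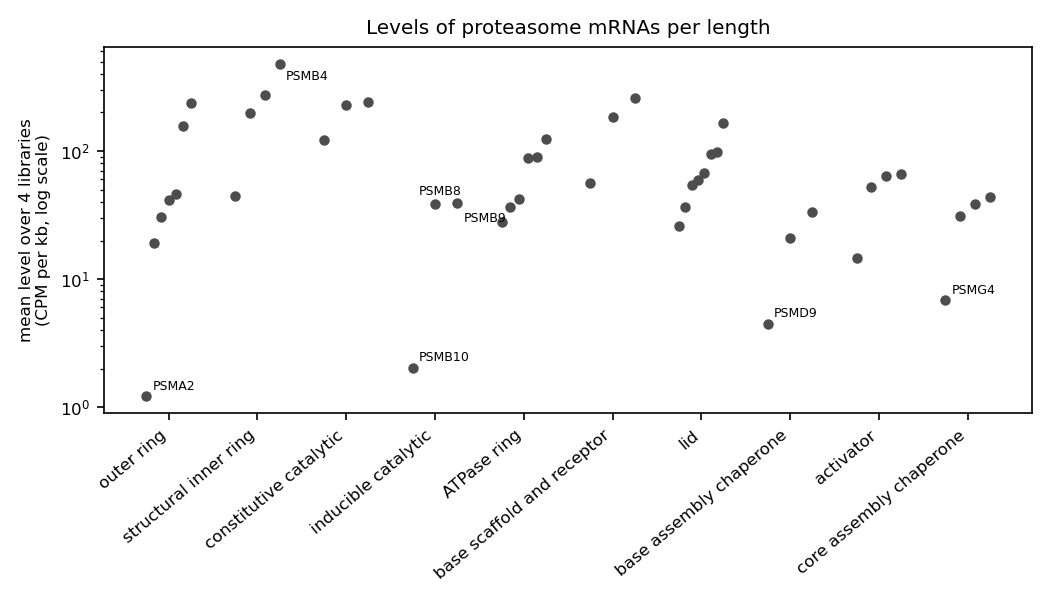
Mean level over the 4 libraries (CPM per kb of longest coding transcript, log scale) of the 45 tested members by role, 1 point per gene. PSMA2 and PSMB10 lie lowest, at 1.21 and 2.03 CPM per kb, and PSMB4 lies highest, at 482 CPM per kb.

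Some members overlap other genes. In GENCODE release 29, 22 members share exon bases with another gene, and 13 share 10% or more of their coding transcript. Reads over more than 1 gene went to an ambiguous tally rather than to a gene, so the counts of such members are uncertain. The shared part was 82.2% for PSMC1, 81.0% for PSMA6, 54.1% for PSMA2, 52.5% for PSMA1 and 50.4% for PSMD7. It was 45.3% for PSMB10, 31.5% for PSMB8 and 17.6% for PSMB9. PSMB8 and PSMB9 share theirs with PSMB8-AS1, which lies on the strand opposite to PSMB8, and the sources used here do not give whether counting used strand. The part of sharing in the levels and in the differences between genotypes was not tested. The tables also list 44 proteasome pseudogene IDs, of which 2 had over 10 reads in all, and reads with several alignments were counted in no gene.

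The outer ring, whose 7 tested subunits form the gate of the barrel, had 1 member higher, 4 lower and 2 not called. After GC adjustment it had 3 higher and 4 lower. Beside these stand 27.2% higher and 27.6% lower over all tested genes, and 28.0% and 24.3% after adjustment. PSMA2 changed most of all members: it had 1.23 and 1.05 CPM in F133V, against 2.675 and 2.27 CPM in wild-type. The F133V libraries were both below the wild-type ones. Its log2 fold change was -1.12 ± 0.20 (SE; edgeR adjusted p = 6.16e-05), or -0.66 after GC adjustment (adjusted p = 0.00421). PSMA2 is a subunit of every proteasome, yet its level was the lowest of the tested members, and 54.1% of its coding transcript is shared with other genes. Without wild-type replicate 1 the adjusted value was -0.54 with no call (adjusted p = 0.0703). PSMA1 and PSMA3 were also lower in both fits, with unadjusted log2 fold changes of -0.32 and -0.50 and adjusted ones of -0.27 and -0.11, though PSMA3 was called higher with the longest transcript. PSMA6 was higher in both, at 0.24 and 0.36, and its adjusted value was 0.84 with the longest transcript. PSMA5 had -0.055 unadjusted and was not called, but rose by 0.60 on the log2 scale after adjustment, on a transcript of 37.3% GC. PSMA4 had -0.26 unadjusted and 0.11 adjusted, called in opposite directions. Without wild-type replicate 1, PSMA4 (-0.24) and PSMA6 (0.32) lost their unadjusted calls and PSMA3 (-0.10) its adjusted one. Without wild-type replicate 2, PSMA1 (-0.29) and PSMA6 (0.16) lost the unadjusted call and PSMA3 (-0.11) and PSMA4 (0.085) the adjusted one.

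Among the structural subunits of the inner ring, PSMB1 to PSMB4, only PSMB1 was called before adjustment, higher in F133V. Its log2 fold change was 0.15 (edgeR adjusted p = 0.0381), and 0.082 after GC adjustment (adjusted p = 0.0391). With the longest transcript the adjusted PSMB1 value was 0.54 (adjusted p = 1.26e-15). PSMB2, PSMB3 and PSMB4 had -0.024, 0.13 and 0.12 and were not called before adjustment. After it PSMB2 was higher (0.24), PSMB3 was lower (-0.098) and PSMB4 had -0.039 with no call. With DESeq2's size factors, DESeq2's Wald test or no filter on low counts, PSMB1 was not called (adjusted p = 0.0651, 0.127 and 0.061). Its call also ended without wild-type replicate 1 or 2 in both fits, at 0.20 and 0.10 unadjusted and 0.12 and 0.056 adjusted, and in the adjusted fit also without F133V replicate 1, at 0.030. The adjusted PSMB3 call ended without either wild-type library, at -0.091 and -0.096.

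The constitutive catalytic subunits showed small differences. PSMB5, the chymotrypsin-like site, had 161 and 163 CPM in F133V, against 156 and 153 CPM in wild-type. PSMB6, the caspase-like site, had 212 and 213 CPM in F133V, against 190.1 and 187 CPM in wild-type. PSMB7, the trypsin-like site, had 243 and 259 CPM in F133V, against 229 and 223 CPM in wild-type. The F133V libraries were above the wild-type ones for each of the 3 genes, as for 40.1% of all tested genes. PSMB6 and PSMB7 were called higher, with log2 fold changes of 0.17 ± 0.058 (edgeR adjusted p = 0.0167) and 0.15 ± 0.059 (adjusted p = 0.032), and PSMB5 was not (0.067 ± 0.059, adjusted p = 0.35). After GC adjustment PSMB6 and PSMB7 lost their calls, at -0.064 and 0.039, and PSMB5 was called lower, at -0.083 (edgeR adjusted p = 0.0366). The DESeq2 Wald test called neither PSMB6 nor PSMB7 (adjusted p = 0.0552 and 0.0972). With either wild-type library left out, none of the 3 calls was made. PSMB6 then had 0.18 and 0.15, PSMB7 0.17 and 0.13, and the adjusted PSMB5 -0.077 and -0.086, for wild-type replicates 1 and 2 left out.

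Of the inducible catalytic subunits, PSMB8, which takes the place of PSMB5, was higher in F133V in both fits. It had 57.4 and 60.1 CPM in F133V, against 45.03 and 47.4 CPM in wild-type, so both F133V libraries were above both wild-type ones. Its log2 fold change was 0.35 ± 0.070 (edgeR adjusted p = 0.000297), a fold of 1.27, and 0.12 after GC adjustment (adjusted p = 0.0204), a fold of 1.09. Its unadjusted call ended without wild-type replicate 1 (0.31, edgeR adjusted p = 0.0705), and its adjusted call without that library (0.074, adjusted p = 0.395) or without F133V replicate 1 (0.080, adjusted p = 0.158). PSMB9, which takes the place of PSMB6, had 33.3 and 34.6 CPM in F133V, against 28.6 and 27.7 CPM in wild-type, again with no overlap. It was called higher with a log2 fold change of 0.27 ± 0.075 (edgeR adjusted p = 0.00487), and had 0.037 with no call after adjustment (adjusted p = 0.57). With the longest transcript in place of the coding one, the adjusted value was 0.29 and called higher (adjusted p = 1.56e-05). The unadjusted call ended without wild-type replicate 1 or 2, at 0.29 and 0.24 (edgeR adjusted p = 0.107 and 0.19). PSMB10, which takes the place of PSMB7, had 2.40 and 2.465 CPM in F133V, against 2.65 and 2.38 CPM in wild-type. Its groups overlapped, and it was called in neither fit, with -0.052 ± 0.16 (edgeR adjusted p = 0.807) and -0.35 after adjustment (adjusted p = 0.0655).

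**Figure D4:**
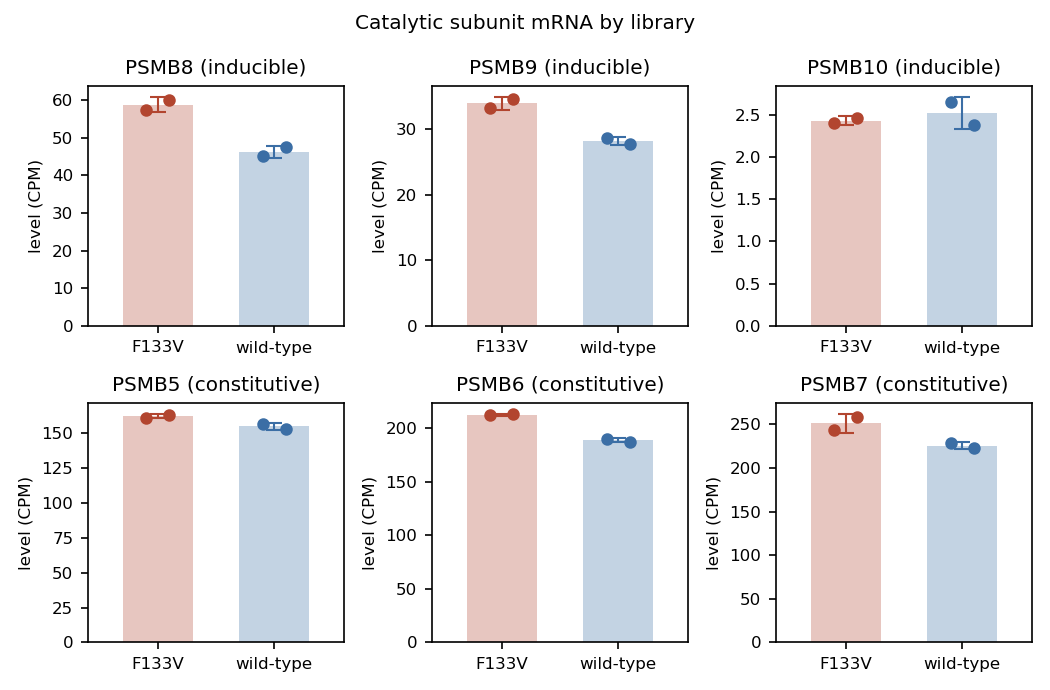
Level in CPM (vertical axis, from 0) of the inducible (top row) and constitutive (bottom row) catalytic subunits, F133V left and wild-type right in each panel. Bars are means, error bars SD and points the 2 libraries. F133V points lie above the wild-type ones in every panel except that of PSMB10, as for 40.1% of all tested genes.

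The ratio of each inducible subunit to the constitutive subunit it replaces was compared per length. PSMB8 mRNA was 34.1% and 35.3% of PSMB5 mRNA in F133V, against 27.6% and 29.6% in wild-type. PSMB9 mRNA was 17.3% and 17.9% of PSMB6 mRNA in F133V, against 16.6% and 16.3% in wild-type. PSMB10 mRNA was 0.792% and 0.766% of PSMB7 mRNA in F133V, against 0.931% and 0.860% in wild-type. The PSMB8 and PSMB9 ratios were higher in F133V and the PSMB10 ratio lower, with no overlap between genotypes. On the log2 scale the changes were 0.28, 0.098 and -0.20, beside SDs within genotypes of 0.057, 0.027 and 0.060. PSMB10 had only 88 and 87 reads in F133V and 104 and 85 in wild-type, and its own fold change an SE of 0.16. An SD from 2 libraries per genotype can fall below such counting noise, so it does not set off the PSMB10 change. After GC adjustment they were 0.21, 0.10 and -0.38. The ratios are a description with no test; an exact permutation test of 2 against 2 libraries cannot give a two-sided p below 0.333.

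**Figure D5:**
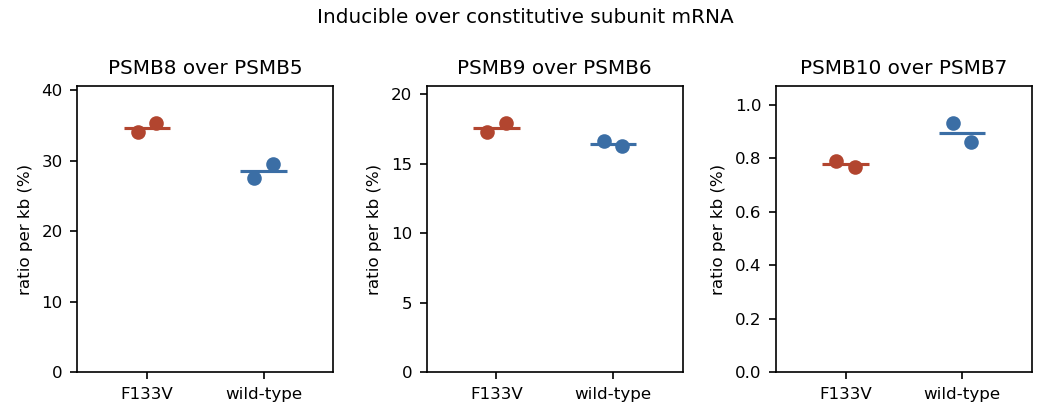
Ratio of each inducible subunit's mRNA to that of its constitutive counterpart, in percent per kb (vertical axis, from 0), F133V left and wild-type right. Points are libraries and lines means; PSMB8 over PSMB5 is 34.1% and 35.3% in F133V against 27.6% and 29.6% in wild-type, and PSMB10 over PSMB7 is below 1% in all libraries.

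Promoter windows were searched for letters known from interferon-response elements. RefSeq windows on GRCh38.p14, from 250 bases before to 50 after the start, matched 41 of the 47 members. The core of the interferon-stimulated response element (ISRE), GAAA then 2 bases then GAAA, or TTTC for GAAA on the other strand, stood in the windows of 7 of these 41 genes (17.1%), against 4.38% of all 27305 genes with a window. In 5 of them, PSMB8, PSMB10, PSME1, PSME2 and PSMG4, the match was the same sequence, GAAAGCGAAA or its reverse complement. Its first base lay at most 33 bases from the start. Of all 27305 genes, 34 (0.125%) hold it. The sequence was picked as the commonest ISRE match among the members, so its rarity over all genes is no independent comparison. For PSMB8, the RefSeq start whose window holds the match is shown. The stretches run 5′ to 3′ on the gene's strand from base -60 to base 20 around the start and mark the match in capitals. PSMB9, which has none in its window, is shown for comparison.
PSMB8 (chr6:32844028-32844107, minus strand): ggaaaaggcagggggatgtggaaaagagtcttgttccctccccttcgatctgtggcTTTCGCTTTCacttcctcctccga
PSMB10 (chr16:67936831-67936910, minus strand): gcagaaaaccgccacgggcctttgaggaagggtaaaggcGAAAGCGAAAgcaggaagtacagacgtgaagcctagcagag
PSME1 (chr14:24136134-24136213, plus strand): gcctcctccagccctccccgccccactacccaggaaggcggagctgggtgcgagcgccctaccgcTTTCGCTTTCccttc
PSME2 (chr14:24146591-24146670, minus strand): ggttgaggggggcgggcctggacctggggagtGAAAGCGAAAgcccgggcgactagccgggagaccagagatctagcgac
PSMG4 (chr6:3258887-3258966, plus strand): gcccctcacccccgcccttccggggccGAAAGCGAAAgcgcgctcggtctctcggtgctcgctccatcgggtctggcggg
PSMB9 (chr6:32854132-32854211, plus strand): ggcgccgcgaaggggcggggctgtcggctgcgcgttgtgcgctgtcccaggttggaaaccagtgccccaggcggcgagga

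The genes with this shared sequence did not move as 1 group. PSMB8 was called higher in both fits, PSME1 in the unadjusted fit alone, PSME2 lower in the adjusted fit alone, and PSMB10 and PSMG4 in neither. With the longest transcript in the adjustment, PSME2 was not called. All 7 genes with any ISRE core were tested. They counted 2 higher, 1 lower and 4 not called, with a median log2 fold change of 0.12, or -0.039 after adjustment. The 32 tested genes without the core counted 3 higher, 20 lower and 9 not called, with a median of -0.22, or -0.19 after adjustment. Over all tested genes 27.2% were called higher and 27.6% lower before adjustment. The difference between these sets was not tested. A match is a run of letters and not evidence of binding.

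PSME1 and PSME2 form the interferon-inducible activator that opens the gate without ubiquitin. PSME1 had 79.1 and 83.5 CPM in F133V, against 70.15 and 69.8 CPM in wild-type. It was called higher with a log2 fold change of 0.22 ± 0.066 (edgeR adjusted p = 0.00869), and had 0.031 with no call after adjustment. That call ended without wild-type replicate 1 (0.22) or 2 (0.21). PSME2 had 77.9 and 76.8 CPM in F133V, against 72.4 and 69.3 CPM in wild-type. Its F133V libraries were also above the wild-type ones, but it was not called (0.13 ± 0.066, edgeR adjusted p = 0.11). After adjustment PSME2 was lower (-0.14, adjusted p = 0.0063), but with the longest transcript it had 0.013 with no call (adjusted p = 0.823). The coding-transcript call ended without F133V replicate 2 (-0.079) or wild-type replicate 1 (-0.12). The unadjusted PSME2 value was 0.14 without F133V replicate 2.

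The other activators were lower in both fits. PSME3, the nuclear activator, had a log2 fold change of -0.32 and -0.35 after adjustment (edgeR adjusted p = 0.000108 and 3.32e-11). PSME4, a large nuclear activator linked to histone degradation, had 84.1 and 74.6 CPM in F133V, against 128.5 and 126 CPM in wild-type. Both F133V libraries were below both wild-type libraries. Its log2 fold change was -0.68 ± 0.068 (edgeR adjusted p = 5.56e-08), a fold of 0.624, and -0.22 after adjustment (adjusted p = 3.11e-06).

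The ATPase ring was the one role in which every member was called in the same direction before adjustment. The same test called 27.6% of all tested genes lower, and 24.3% in the adjusted fit. All 6 subunits, PSMC1 to PSMC6, were lower in F133V, with log2 fold changes between -0.64 and -0.16 and a median of -0.26. PSMC6 changed most, with 78.65 and 67.2 CPM in F133V, against 112 and 115 CPM in wild-type. F133V was below wild-type in both libraries, at -0.64 ± 0.072 (edgeR adjusted p = 3.2e-07), but PSMC6 has the transcript of lowest GC content among the tested members, 36.8%, and stood at -0.0069 after adjustment (adjusted p = 0.896). With the longest transcript its adjusted value was -0.11 and called lower (adjusted p = 0.0216). PSMC1, PSMC3, PSMC4 and PSMC5 were lower in both fits. Their adjusted log2 fold changes were -0.32, -0.43, -0.38 and -0.33. PSMC2 had 0.19 after adjustment and was called higher. The unadjusted median was -0.23 without wild-type replicate 1 and -0.30 without wild-type replicate 2. Fewer of the 6 kept their calls there, with the spread taken from the F133V pair alone. Under upper-quartile scaling 3 were called lower, with PSMC3, PSMC4 and PSMC5 no longer called (adjusted p = 0.277, 0.558 and 0.324). All 6 values stayed below 0 in these fits and with DESeq2's size factors; after adjustment that of PSMC2 did not.

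In the rest of the base, the scaffold PSMD1 was lower in both fits, at -0.46 and -0.25. The scaffold PSMD2 and the ubiquitin receptor PSMD4 had -0.051 and 0.069 with no call, and were lower after adjustment, at -0.20 and -0.11. Adjustment thus left all 3 lower, against 24.3% of all genes of the adjusted fit. The adjusted PSMD4 call ended without either wild-type library, at -0.11 and -0.10.

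The lid had 1 member higher, 5 lower and 2 not called, and 6 lower and 2 not called after adjustment. Shares over all tested genes were 27.2% higher and 27.6% lower, and 28.0% and 24.3% after adjustment. With the longest transcript in the adjustment, 4 were lower and 2 higher, PSMD6 at 0.21 and PSMD14 at 0.40. PSMD12 had 90.15 and 84.6 CPM in F133V, against 139.8 and 142 CPM in wild-type. Its F133V libraries lay below the wild-type ones, at a log2 fold change of -0.69 ± 0.063 (edgeR adjusted p = 1.86e-08), a fold of 0.621. After adjustment it had -0.053 with no call (edgeR adjusted p = 0.237), on a transcript of 37.9% GC. PSMD11, which stabilises the joined core and cap, was lower in both fits, at -0.29 and -0.26. PSMD14, the enzyme that removes ubiquitin chains, and its partner PSMD7 were lower in both fits, at -0.39 and -0.29 for PSMD14 and -0.14 and -0.078 for PSMD7. PSMD6 had -0.36 and -0.28. PSMD8 was higher only before adjustment, at 0.21. PSMD3 and PSMD13 were lower only after it, at -0.28 and -0.18. Without wild-type replicate 1, PSMD6 (-0.30), PSMD7 (-0.12) and PSMD8 (0.23) lost their unadjusted calls. Without wild-type replicate 2, PSMD7 (-0.18) and PSMD8 (0.18) lost theirs. The adjusted PSMD7 call ended in the same fits, at -0.060 and -0.097. The unadjusted PSMD7 call was also lost with the DESeq2 Wald test, no filter or upper-quartile scaling (adjusted p = 0.0625, 0.0609 and 0.655).

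The chaperones that build the complex were mixed. Of those for the base, PSMD5 and PSMD10 were called lower, at -0.40 and -0.37, and PSMD9 was not, at -0.0058. After adjustment edgeR called 0 of these 3, and 0 had an unadjusted p under 0.05. Of those for the core, PSMG1 was lower in both fits, at -0.24 and -0.21. Its partner PSMG2 and PSMG3 were lower after adjustment alone, at -0.22 and -0.24, and PSMG4 was called in neither fit. The unadjusted PSMG1 call ended without wild-type replicate 1 (-0.20) or 2 (-0.30), and under upper-quartile scaling (-0.13).

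The other genes of the pathway were counted from a list of 32, all tested. In F133V 5 were higher (15.6%), 16 lower (50%) and 11 not called, with a median log2 fold change of -0.15. Over all tested genes 27.2% were called higher and 27.6% lower. After GC adjustment 9 were higher (28.1%), 15 lower (46.9%) and 8 not called, with a median of -0.020. Over all genes of the adjusted fit 28.0% were called higher and 24.3% lower. Of the regulators of proteasome genes, NFE2L1, the factor that raises proteasome gene expression when the proteasome is impaired, had 544 and 570.3 CPM in F133V, against 424 and 439.5 CPM in wild-type. It was higher in both fits, at 0.37 (edgeR adjusted p = 1.12e-05) and 0.22 (adjusted p = 1.57e-07). DDI2, the protease that cleaves the NFE2L1 protein into its active form, was lower in both, at -0.71 and -0.30. NGLY1, which removes its sugars, was lower before adjustment alone, at -0.38. NFE2L2, the oxidative stress regulator, was lower in both, at -0.62 and -0.52.

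Promoter windows were also searched for the core of the antioxidant response element, to which NFE2L1 and NFE2L2 bind. Its letters, TGACNNNGC or GCNNNGTCA on the other strand, stood in 15 of the 41 member genes with a window (36.6%), against 16.1% of all genes with one. Of the 4 members of largest fall before adjustment, PSME4 holds it near the start and PSMD12 farther away. The windows of PSMA2 and PSMC6 hold no match. After adjustment PSMD12 (-0.053) and PSMC6 (-0.0069) were not called. The windows of PSME4 and PSMD12 are shown with the match in capitals, the first from base -60 to base 20 and the second from base -190 to base -111.
PSME4 (chr2:53970974-53971053, minus strand): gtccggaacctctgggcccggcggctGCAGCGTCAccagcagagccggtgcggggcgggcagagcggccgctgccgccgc
PSMD12 (chr17:67366688-67366767, minus strand): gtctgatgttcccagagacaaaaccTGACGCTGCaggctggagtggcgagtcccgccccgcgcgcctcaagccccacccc
The 15 genes with the letters counted 2 higher, 8 lower and 5 not called, with a median log2 fold change of -0.16. The 24 tested genes without them counted 3 higher, 13 lower and 8 not called, with a median of -0.17. Over all tested genes 27.2% were called higher and 27.6% lower. After adjustment the medians were -0.14 with the letters and -0.098 without. The difference between these sets was not tested. The core of the gamma-interferon activated site, TTCNNNGAA, stood in 8 of 41 member genes (19.5%), against 9.38% of all genes with a window.

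Among the proteins that associate with the cap, the deubiquitinases UCHL5 and USP14 were lower before adjustment, at -0.86 and -0.57. After it UCHL5 was still lower, at -0.11, and USP14 had 0.064 with no call. The ubiquitin receptor ADRM1 was lower after adjustment alone, at -0.44, and the small lid subunit SEM1 higher after adjustment alone, at 0.50. POMP, the maturation factor of the core, was called lower before adjustment, at -0.32, and higher after it, at 0.36. ECPAS, a scaffold that holds proteasomes to other compartments, was lower in both, at -0.47 and -0.28. The polyubiquitin gene UBB was higher in both fits, at 0.34 and 0.20.

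The 5 interferon-linked genes of the list counted 1 higher, 2 lower and 2 not called, and 1 lower and 4 not called after adjustment. So few genes do not stand apart from all tested genes. Of those, 27.2% were called higher and 27.6% lower, and 28.0% and 24.3% after adjustment. TAP1, a subunit of the peptide transporter and a neighbour of PSMB9 with which it shares a promoter region, had 0.25 unadjusted (edgeR adjusted p = 0.00281) and 0.027 adjusted (adjusted p = 0.556). TAP2, the other subunit, was lower in both fits, at -0.32 and -0.31. IRF1 and NLRC5, which activate the inducible genes and MHC class I genes, had 0.16 each and were called in neither fit.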

How the data were processed

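The labels' genotype put each RNA-seq library in its group. The deposited values are raw counts of reads per gene. TopHat2 2.0.10, HTSeq 0.6.0 and the build hg38 are named per the submitters' processing notes. For the annotation release and strand setting: not given in the sources used here. Tallies of reads in no gene, 23.7% to 26.6% of each table, stayed out of library sizes.

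The test was that of edgeR 4.0.16 under R 4.3.3: filterByExpr, TMM, quasi-likelihood F-test, two-sided, Benjamini-Hochberg adjustment over all tested genes, threshold 0.05, 2 residual degrees of freedom. Each fold change is log2 of F133V over wild-type. GC adjustment smoothed each library on transcript GC content and length (mgcv 1.9.3) and entered the smooth as an offset; its coding-transcript form was chosen after seeing the data. The biological coefficient of variation was 4.64%, and 2.36% adjusted. Alternatives used DESeq2 1.42.0, other scalings, no filter, a replicate block and each library left out. The test was checked on simulated counts that had no GC or length trend and few changed genes. That check cannot show how the test or the adjustment behaves under the trend seen here. Gene positions and lengths came from GENCODE release 29, and promoter sequences from RefSeq.

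Values per library were given for the 6 catalytic subunits, PSME1, PSME2 and the 4 other called members of largest change. The members and lists were chosen with earlier results of these data known. Same-numbered replicates did not deviate together (correlation -0.027), and the labels do not pair them. Some listed pathway and marker genes are not reported here.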

Additional observations from a re-analysis of the deposited data

How the results depend on the processing

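PSMA2 and PSMB10, at under 3 CPM, had the largest standard errors of the tested members. A fit without 1 wild-type library takes its spread from the F133V pair alone. One without 1 F133V library takes it from the wild-type pair alone, so calls gained or lost there do not show a changed fold change. Under DESeq2's size factors, the DESeq2 Wald test, no filter on low counts and the replicate block, 40 to 43 of the 45 members kept direction and call. GC adjustment kept 20 and upper-quartile scaling 26. Upper-quartile scaling raised the median of all genes by 0.11 on the log2 scale, so values under it are relative to that shift. The cause of the changes listed here was not tested.

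Members called higher numbered 13 and the median was 0.056 under upper-quartile scaling, and 5 were called higher by DESeq2's Wald test. With the replicate block, 7 were called higher and 19 lower, and PSMB1, PSMC4 and PSMD7 lost their calls (adjusted p = 0.0564, 0.0531 and 0.0746). Leaving out 1 library gave 0 to 11 called higher, 13 to 23 called lower and medians of -0.11 to -0.060. The median was -0.11 with coding-transcript and -0.10 with longest-transcript adjustment; the adjusted count of higher members was 7 and 11 with these choices, and the adjusted median ran from -0.15 to -0.11 with 1 library left out. The change in the PSMB8 to PSMB5 ratio was 0.21 with coding-transcript adjustment, that of PSMB9 to PSMB6 was 0.36 with longest-transcript adjustment, and that of PSMB10 to PSMB7 was -0.38 with both.

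Upper-quartile scaling turned the direction of PSMA5 (0.056), PSMA7 (0.10), PSMB2 (0.087), PSMB10 (0.058), PSMD2 (0.060), PSMD3 (0.092), PSMD13 (0.090), PSMD9 (0.11) and PSMG2 (0.040). PSMG4 turned to -0.0065 with DESeq2's size factors and -0.0063 with its Wald test. Coding-transcript adjustment turned PSMA4 (0.11), PSMA5 (0.60), PSMB2 (0.24), PSMB3 (-0.098), PSMB4 (-0.039), PSMB5 (-0.083), PSMB6 (-0.064), PSMC2 (0.19), PSMD4 (-0.11), PSMD8 (-0.0080), PSMD5 (0.020), PSME2 (-0.14), PSMG3 (-0.24) and PSMG4 (-0.084). Longest-transcript adjustment turned PSMA3 (0.083), PSMA4 (0.086), PSMA5 (0.57), PSMB2 (0.22), PSMB3 (-0.10), PSMB5 (-0.097), PSMB6 (-0.072), PSMC2 (0.16), PSMD4 (-0.12), PSMD6 (0.21), PSMD8 (-0.026), PSMD14 (0.40), PSMG3 (-0.26) and PSMG4 (-0.10). Against the coding-transcript value it also turned PSMB4 (0.073), PSMD5 (-0.0059) and PSME2 (0.013), with and without the replicate block (with it PSMD5 -0.0060 and PSMA3 0.0823).

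With 1 library left out, the unadjusted value ran from -0.056 to 4.08e-05 for PSMA7, -0.10 to 0.055 for PSMD9, -0.080 to 0.066 for PSMG4, -0.13 to 0.027 for PSMB10, -0.067 to 0.00093 for PSMD3 and -0.057 to 0.0091 for PSMD13. The adjusted value ran from -0.0082 to 0.050 for PSMB9, -0.027 to 0.029 for PSMD5, -0.092 to 0.019 for PSMD10, -0.0062 to 0.050 for PSMB7, -0.067 to 0.014 for PSMC6 and -0.035 to 0.0032 for PSMD8.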
